A study of Homo sapiens with 8 samples.

Results

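The enzymes described here make serine from a glycolytic intermediate and pass its carbon into the folate cycle. They are 10 of the 62649 genes in the deposited table, listed by gene symbol with earlier results of these data known: PHGDH, PSAT1, PSPH, SHMT1, SHMT2, MTHFD1, MTHFD2, MTHFD1L, ALDH1L2 and PCK2. Shares of all genes set beside counts of these 10 therefore give a scale and not a test. Each symbol matched 1 gene, and all 10 passed the filter on low values, PHGDH and ALDH1L2 through 1 of the 2 cell lines only. RNA was measured in AsPC-1 and PANC-1, established human lines from pancreatic ductal adenocarcinoma whose genotype the labels give as wild type (WT). Both were grown for 3 days as 3D cultures in methylcellulose with RPMI medium and 10% serum, then kept for 24 h with the vehicle, with roseoflavin at 10 µM, with trametinib at 1 nM, or with the combination of these. Roseoflavin is an analog of riboflavin (vitamin B2), and trametinib inhibits the kinases MEK1 and MEK2. Each of the 8 groups is 1 library, so no group has a replicate, and whether a library pools several cultures is not given in the sources used here.

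Serine is made in the cytosol in consecutive steps. PHGDH oxidises 3-phosphoglycerate, PSAT1 adds the amino group, and PSPH removes the phosphate. Serine hydroxymethyltransferase then splits serine into glycine and a one-carbon unit carried on folate, through SHMT1 in the cytosol and SHMT2 in mitochondria. In mitochondria MTHFD2 oxidises that unit, MTHFD1L releases it as formate for export, and ALDH1L2 can burn it to carbon dioxide. MTHFD1 takes up the formate in the cytosol. PCK2, the mitochondrial phosphoenolpyruvate carboxykinase, can feed carbon from the citric acid cycle towards serine. Many of these genes are known targets of ATF4, a transcription factor of the amino acid and integrated stress response, and proliferating tumour cells are known to draw on the pathway for nucleotide synthesis.

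Promoter windows of 300 bases were read from RefSeq (GRCh38.p14) for 7 of the 10 genes. SHMT2, PSPH and ALDH1L2 had none in that table. They were searched on both strands for TGATGNAA, the core of the C/EBP-ATF response element that ATF4 binds, for the E-box CACGTG, and for TGACNNNGC, the core of the antioxidant response element. Windows of 4 genes are shown: PSAT1, MTHFD2 and PCK2, the genes with a window that were at least 25% higher with roseoflavin in both matched pairs of PANC-1 libraries described below, and MTHFD1L, the one window with TGATGNAA. Capitals mark any match to these motifs, and all 4 windows are on the plus strand, at chr9:78296875-78297174 for PSAT1, chr2:74198365-74198664 for MTHFD2, chr14:24094061-24094360 for PCK2 and chr6:150866236-150866535 for MTHFD1L.
PSAT1: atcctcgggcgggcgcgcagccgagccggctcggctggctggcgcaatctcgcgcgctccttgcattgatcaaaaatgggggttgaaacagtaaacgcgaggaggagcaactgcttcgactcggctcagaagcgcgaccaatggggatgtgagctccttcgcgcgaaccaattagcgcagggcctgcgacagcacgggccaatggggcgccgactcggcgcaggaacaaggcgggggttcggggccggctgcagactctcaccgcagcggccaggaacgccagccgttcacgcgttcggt
MTHFD2: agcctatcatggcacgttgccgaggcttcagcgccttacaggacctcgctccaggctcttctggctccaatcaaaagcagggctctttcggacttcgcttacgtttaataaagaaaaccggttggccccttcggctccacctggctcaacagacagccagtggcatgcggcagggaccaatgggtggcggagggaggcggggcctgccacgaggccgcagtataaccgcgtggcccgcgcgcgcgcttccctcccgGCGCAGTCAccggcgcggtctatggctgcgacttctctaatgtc
PCK2: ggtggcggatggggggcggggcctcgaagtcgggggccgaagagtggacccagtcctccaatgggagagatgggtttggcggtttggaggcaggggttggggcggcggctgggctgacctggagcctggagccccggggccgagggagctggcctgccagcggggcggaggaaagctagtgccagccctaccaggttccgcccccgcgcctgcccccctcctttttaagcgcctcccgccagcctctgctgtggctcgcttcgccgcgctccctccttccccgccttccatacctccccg
MTHFD1L: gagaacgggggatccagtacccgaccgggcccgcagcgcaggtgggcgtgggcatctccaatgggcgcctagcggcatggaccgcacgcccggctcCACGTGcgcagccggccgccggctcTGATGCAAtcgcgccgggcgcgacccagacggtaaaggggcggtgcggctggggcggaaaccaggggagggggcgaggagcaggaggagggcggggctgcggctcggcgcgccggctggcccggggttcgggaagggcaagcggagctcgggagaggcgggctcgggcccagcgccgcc
TGATGNAA was present for 1 of the 7 genes, against 2.68% of the 11355 tested genes with a window and 3.62% of all 35093 windows. In MTHFD1L it began at base -129 from the start site, with CACGTG at -154, and the overlapping windows of 2 further MTHFD1L start sites hold the same sequence at both. CACGTG was also present in MTHFD1, beginning at -15, and was found for 12.3% of the tested genes with a window. The MTHFD2 match is to TGACNNNGC read on the minus strand, beginning at base 7 after the start site, a motif present for 19.1% of the tested genes with a window. The windows of PSAT1, PCK2, PHGDH and SHMT1 held none of the motifs. A match is a description of the letters only.

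Values are TPM, a level corrected for gene length and scaled so that each library adds up to 1000000, so the number of reads behind any value is unknown. The AsPC-1 libraries had 15280 to 15580 genes at 1 TPM or more, and the PANC-1 libraries 17105 to 17201. Transcripts of the mitochondrial genome took 41.2% to 44.1% of TPM in AsPC-1 and 22.8% to 25.6% in PANC-1, which moves every nuclear gene between the lines. The share also differed with roseoflavin within a line. In PANC-1 it went from 25.6% to 23.7% with roseoflavin alone and from 24.8% to 22.8% on top of trametinib. In AsPC-1 it went from 41.2% to 44.1% and from 42.2% to 41.3%. Directions of matched pairs below are of TPM as deposited, so small ones may depend on this scaling. The keratins KRT8, KRT18 and KRT19 were high in all 8 libraries. EPCAM ranged from 14.5 to 1485 TPM, and the acinar and islet markers, PTPRC and PECAM1 stayed at or under 0.158 TPM. All 7 epithelial markers were lower and all 3 tested mesenchymal markers higher in PANC-1. Of 4 fibroblast markers, LUM stood at 103 to 146 TPM in AsPC-1 and at or under 0.039 TPM in PANC-1, COL1A1 at 98.9 to 107 TPM in PANC-1 and at or under 0.121 TPM in AsPC-1, and COL1A2 and DCN at or under 0.027 and 0.083 TPM in all libraries. The macrophage marker CD68 stood at 108 to 139 TPM in all libraries. In bulk RNA, fewer cells of a type and less RNA per cell cannot be told apart.

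The lines differed widely in the first steps of the pathway. The serine synthesis genes were far higher in PANC-1, the mitochondrial folate genes were partly higher, and the cytosolic folate genes were close. PHGDH (1:119648411-119744226, plus strand; gene coordinates here are GENCODE release 29 on GRCh38) was listed at 0 TPM in 3 of the 4 AsPC-1 libraries and at 0.011 TPM in vehicle. In PANC-1 it stood at 39.9 TPM with vehicle, 47.0 with roseoflavin, 40.1 with trametinib and 48.3 with both. Transcript of the enzyme that commits 3-phosphoglycerate to serine was therefore all but unlisted in AsPC-1, whose later pathway genes were listed. PSAT1 (9:78297143-78330093, plus strand) was listed, in the same order of treatments, at 16.0, 16.2, 16.5 and 13.7 TPM in AsPC-1 and at 168, 225, 162 and 222 TPM in PANC-1. PSPH (7:56011051-56051604, minus strand) was at 19.1, 18.4, 20.3 and 20.2 TPM in AsPC-1 and 68.9, 75.3, 72.1 and 73.4 TPM in PANC-1. The lines did not overlap for any of these genes. For PSPH the separation is uncertain, since its pseudogene PSPHP1 had 0 TPM throughout AsPC-1 and 84.9, 109, 91.8 and 119 TPM in PANC-1, and how reads shared by both were counted is not given in the sources used here.

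In the mitochondrial arm SHMT2 was the exception. SHMT2 (12:57229327-57234935, plus strand), the mitochondrial serine hydroxymethyltransferase, stood at 57.2, 60.3, 55.1 and 59.0 TPM in AsPC-1 and at 53.0, 57.7, 52.1 and 58.4 TPM in PANC-1, with overlapping lines. MTHFD2 (2:74198562-74217565, plus strand), the mitochondrial dehydrogenase and cyclohydrolase, stood at 12.4, 11.4, 12.1 and 12.0 TPM in AsPC-1 and at 56.4, 73.5, 56.8 and 74.5 TPM in PANC-1. MTHFD1L (6:150865549-151101887, plus strand), the mitochondrial formate producer, stood at 13.5, 14.2, 13.0 and 14.9 TPM in AsPC-1 and at 43.4, 46.5, 40.1 and 43.1 TPM in PANC-1. Both were higher in every PANC-1 library than in any AsPC-1 library. ALDH1L2 (12:105019784-105084577, minus strand), which oxidises the folate-bound unit to carbon dioxide, was at or under 0.052 TPM in AsPC-1 and at 5.31, 7.20, 5.52 and 7.71 TPM in PANC-1. PCK2 (14:24094053-24110598, plus strand) stood at 23.3, 18.1, 22.2 and 21.3 TPM in AsPC-1 and at 32.8, 44.0, 33.7 and 47.3 TPM in PANC-1.

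The cytosolic enzymes spanned a narrower range. SHMT1 (17:18327860-18363563, minus strand), the cytosolic counterpart of SHMT2, stood at 6.07, 5.83, 5.77 and 6.32 TPM in AsPC-1 and at 10.2, 9.34, 10.2 and 8.89 TPM in PANC-1. MTHFD1 (14:64388031-64463457, plus strand), the cytosolic enzyme that takes up formate, stood at 13.2, 14.3, 13.0 and 14.0 TPM in AsPC-1 and at 16.7, 15.4, 16.5 and 14.9 TPM in PANC-1. Neither gene's lines overlapped, though for MTHFD1 the lowest PANC-1 and the highest AsPC-1 library lay close together. SMCR8, on the strand opposite SHMT1, had 11.2 to 31.2 TPM, and AC006030.1, opposite MTHFD2, 16.2 to 30.9 TPM. The library kit keeps strand, but whether the counting used it is not given in the sources used here.

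**Figure D1:**
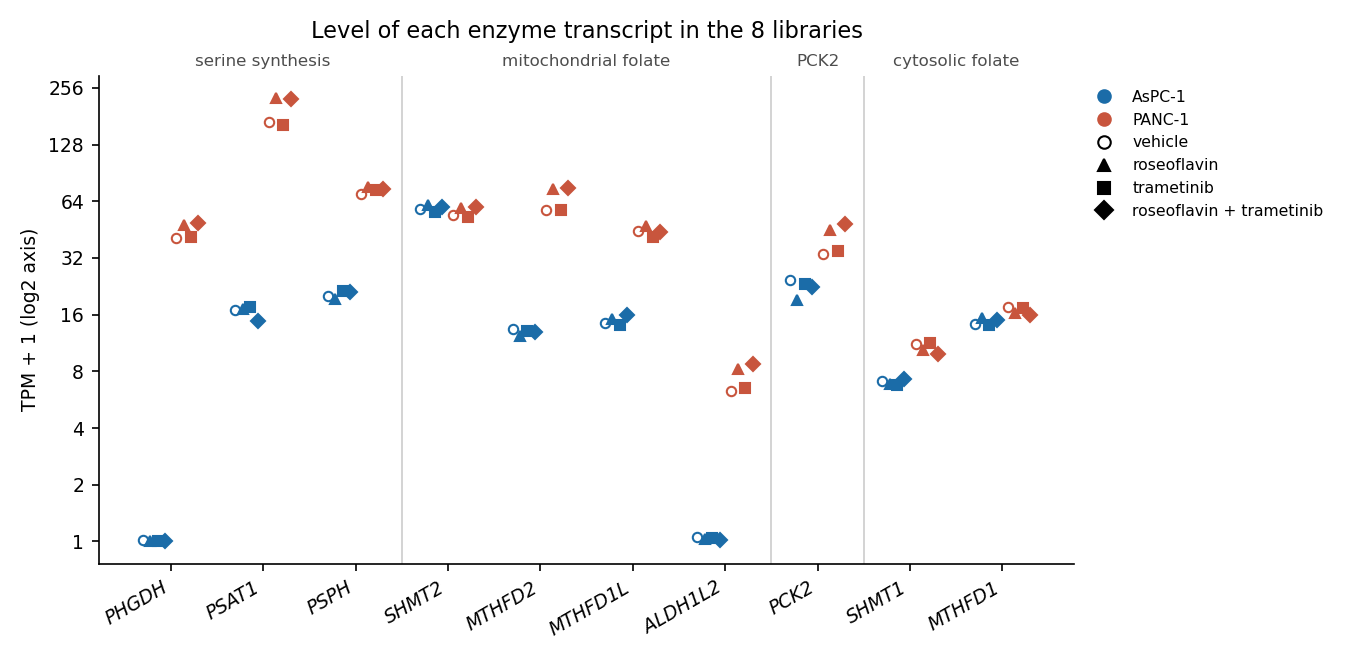
Level of each of the 10 enzyme transcripts as TPM + 1 on a log2 axis, with 1 point per library and the lines and treatments set apart by colour and marker. PHGDH and ALDH1L2 sit at the floor in all 4 AsPC-1 libraries, SHMT2 overlaps between lines, and the spread between treatments is small beside the distance between lines for PSAT1, PSPH, MTHFD2 and MTHFD1L.

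In the order of levels per length, SHMT2 came first in AsPC-1 with a mean of 57.9 TPM, followed by PCK2 and PSPH, whose ranges overlapped. PSAT1, MTHFD1L and MTHFD1 overlapped with their neighbours in that order, and MTHFD2, SHMT1, ALDH1L2 and PHGDH followed. PSAT1 came first in PANC-1 with a mean of 195 TPM. PSPH, MTHFD2 and SHMT2 came next, and the range of each overlapped that of its neighbour. PHGDH, MTHFD1L and PCK2 overlapped as a further group, above MTHFD1, SHMT1 and ALDH1L2. The ratio of MTHFD2 to SHMT2, consecutive enzymes of the mitochondrial arm, was 0.188 to 0.221 in AsPC-1 and 1.06 to 1.28 in PANC-1. The ratio of SHMT2 to SHMT1 ran the other way, at 9.34 to 10.3 in AsPC-1 and 5.08 to 6.57 in PANC-1.

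Tested over 4 libraries of each line with both compounds in the model, 7 of the 8 genes that reached 1 TPM in both lines were higher in PANC-1 (limma on log2(TPM + 1), Benjamini-Hochberg adjusted p under 0.05). Of all 19122 genes tested, 83.8% passed that threshold and 62.3% passed it in this direction, so a call between these lines was the rule. PSAT1 was higher by 3.54 (log2; SE 0.119, limma adjusted p = 3.58e-07), and its mean TPM was 12.5-fold higher. MTHFD2 was higher by 2.34 (SE 0.0959, adjusted p = 8.79e-07 by limma), 5.45-fold in mean TPM. PSPH was higher by 1.84 (3.71-fold in mean TPM) and MTHFD1L by 1.57 (3.12-fold in mean TPM). PCK2 (0.85), SHMT1 (0.61) and MTHFD1 (0.20) differed less, and SHMT2 did not pass, at -0.07 (SE 0.0327, limma adjusted p = 0.101). PHGDH and ALDH1L2 reached the test only through PANC-1 and had to differ, so they are left out of these counts, and no fold is given for them. The median difference of the 8 genes was 1.21, against 0.55 for all genes tested, and for 7 of 8 every PANC-1 library was above every AsPC-1 library, against 59.4% of all genes. Rescaled over nuclear genes only, the median of all genes was 0.22, MTHFD1 lay at -0.17 (limma adjusted p = 0.0627), and SHMT2 passed as lower in PANC-1, at -0.45 (adjusted p = 1.8e-05). After quantile normalization MTHFD1 was lower at -0.33 (limma adjusted p = 0.00284), SHMT2 was lower at -0.52 (adjusted p = 9.17e-06), and SHMT1 at 0.06 no longer passed (adjusted p = 0.465). Without the PANC-1 vehicle library the MTHFD1 difference was 0.17 (limma adjusted p = 0.0537). The direction for MTHFD1 and the calls for SHMT1 and SHMT2 thus depend on the scaling, beside a share of mitochondrial transcripts that differs between the lines.

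Within a line, the larger fitted changes of these genes were those with roseoflavin in PANC-1. Each compound was compared in 2 matched pairs of libraries per line, without and on top of the other compound. In PANC-1 the transcripts for serine synthesis and mitochondrial folate enzymes were higher with roseoflavin in both pairs, and the cytosolic SHMT1 and MTHFD1 were lower in both. No gene of the 19122 passed the adjusted threshold for this effect (0% by limma, which has 2 residual degrees of freedom here), so these are values and not calls. At an unadjusted p under 0.05, 6 of the 10 were higher (PSAT1, PCK2, ALDH1L2, MTHFD2, PHGDH and SHMT2), against 5.84% of all genes tested, and 0 were lower, against 5.01%. That count was 2 without any 1 of the PANC-1 libraries (vehicle, roseoflavin, trametinib or both, in turn), which leaves 1 residual degree of freedom, and 4 with a pseudocount of 0.1. The median change was 0.19 for the 10 genes and 0 for all genes.

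PSAT1 went from 168 to 225 TPM with roseoflavin alone (+34.0%) and from 162 to 222 TPM on top of trametinib (+36.6%). The fitted change was 0.43 (SE 0.0761, 95% interval 0.22 to 0.65, limma adjusted p = 0.362). PHGDH was higher by 17.7% and 20.3% in the same pairs, a fitted change of 0.24 (SE 0.0557, limma adjusted p = 0.398). PSPH, the last step, differed less, at 0.13 without and 0.03 on top of trametinib (fitted 0.08, limma adjusted p = 0.611). Its pseudogene PSPHP1 went from 84.9 to 109 TPM and from 91.8 to 119 TPM in the same pairs. How reads shared by both were counted is not given, so this PSPH change is uncertain too. The summed level of the 3 serine synthesis genes was 277 and 275 TPM without roseoflavin and 348 and 344 TPM with it, and PSAT1 made up most of that sum.

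MTHFD2 went from 56.4 to 73.5 TPM (+30.3%) and from 56.8 to 74.5 TPM (+31.1%). Its fitted change was 0.38 (SE 0.0463, 95% interval 0.25 to 0.51), with the lowest p of the 10 genes (limma adjusted p = 0.261). ALDH1L2 went from 5.31 to 7.20 TPM and from 5.52 to 7.71 TPM, a fitted change of 0.40 on the log2(TPM + 1) scale, which understates changes at such levels (SE 0.0805, limma adjusted p = 0.386). PCK2 went from 32.8 to 44.0 TPM (+34.1%) and from 33.7 to 47.3 TPM (+40.6%), a fitted change of 0.45 (SE 0.0845, limma adjusted p = 0.381). In all of these the pair of roseoflavin libraries lay above the pair without it. SHMT2, the entry to the mitochondrial arm, differed by 8.84% and 12.1%, a fitted change of 0.14 (SE 0.0372, limma adjusted p = 0.406). MTHFD1L differed by 0.10 in either pair, and its libraries with and without roseoflavin overlapped.

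The cytosolic genes lay on the other side of 0. SHMT1 had a fitted change of -0.15 (SE 0.0681, limma adjusted p = 0.526) and MTHFD1 of -0.12 (SE 0.0442, limma adjusted p = 0.461). Both roseoflavin libraries were below both others for each gene. With the mitochondrial sum at 158 and 154 TPM without roseoflavin and 185 and 184 TPM with it, and the cytosolic sum at 26.9 and 26.7 against 24.7 and 23.8 TPM, the ratio of mitochondrial to cytosolic folate transcripts was 5.89 and 5.78 without and 7.48 and 7.73 with roseoflavin. In AsPC-1 the same ratio was 4.22 to 4.31 in all 4 libraries.

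By direction alone, 8 of the 10 genes were higher in both PANC-1 pairs (30.5% of all genes tested) and 2 were lower in both (29.8%). In 7 the roseoflavin libraries were both above the others (22.9% of all genes) and in 2 both below (22.7%). By size, ALDH1L2, MTHFD2, PCK2 and PSAT1 were at least 25% higher as TPM + 1 in both pairs, 4 of 10 against 2.13% of all genes tested. Of the members averaging 10 TPM or more this held for 3 of 8, against 1.29% of the 9368 genes above that level. None of the 10 was 50% higher in both pairs.

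**Figure D2:**
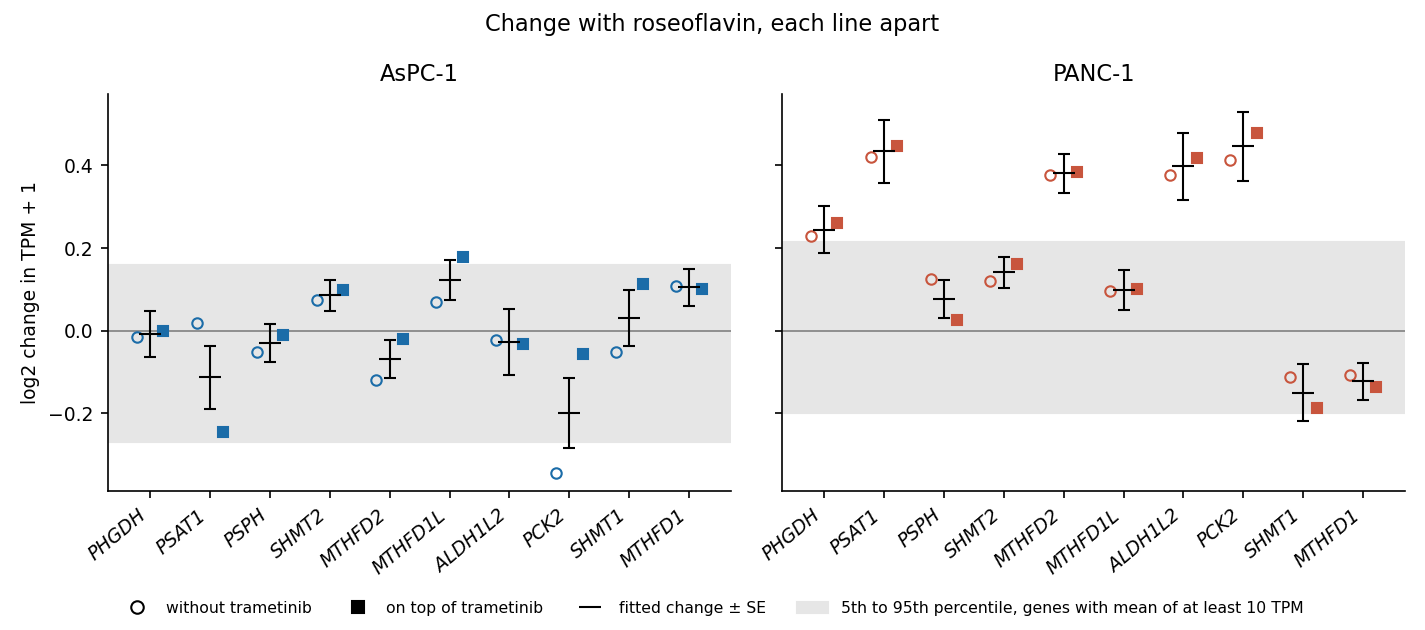
Change with roseoflavin in log2(TPM + 1) for each gene, AsPC-1 and PANC-1 in separate panels. Points are the 2 matched pairs, black bars the fitted change with its SE, and the grey band the 5th to 95th percentile of genes averaging 10 TPM or more. In PANC-1 that band runs from -0.20 to 0.22, and the fitted changes of PSAT1, PCK2, ALDH1L2, MTHFD2 and PHGDH (0.24) lie above it. ALDH1L2 averages 3.24 TPM and is not one of the band's genes. Over all genes tested the 95th percentile is 0.33.

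In AsPC-1 the same genes did not show this pattern. PHGDH and ALDH1L2 were too low there for a change to be measured. None of the 10 had an unadjusted p under 0.05 in limma, against 11.3% of all genes tested, and the median change was -0.02 (-0.03 for all genes); 0 genes of the 19122 passed the adjusted threshold (0%). The fitted change was -0.11 for PSAT1 (95% interval -0.33 to 0.10), with pairs at 0.02 and -0.25. It was -0.07 for MTHFD2 (-0.20 to 0.06) and -0.20 for PCK2 (-0.44 to 0.04), whose pairs were -0.34 and -0.06. The 3 highest were MTHFD1L at 0.12 (SE 0.0482, limma adjusted p = 0.459), MTHFD1 at 0.10 (SE 0.0442, adjusted p = 0.475) and SHMT2 at 0.09 (SE 0.0372, adjusted p = 0.481), each higher in both pairs (17% of all genes). ALDH1L2, MTHFD2, PCK2 and PSPH were lower in both (35.4%), ALDH1L2 at levels near 0. None differed by the same 25% rule in both pairs in either direction (0.947% of all genes higher, 2.64% lower). The sum of all 10 genes was 158 to 161 TPM in the AsPC-1 libraries, and in PANC-1 it was 495 and 490 TPM without and 601 and 598 TPM with roseoflavin.

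**Figure D3:**
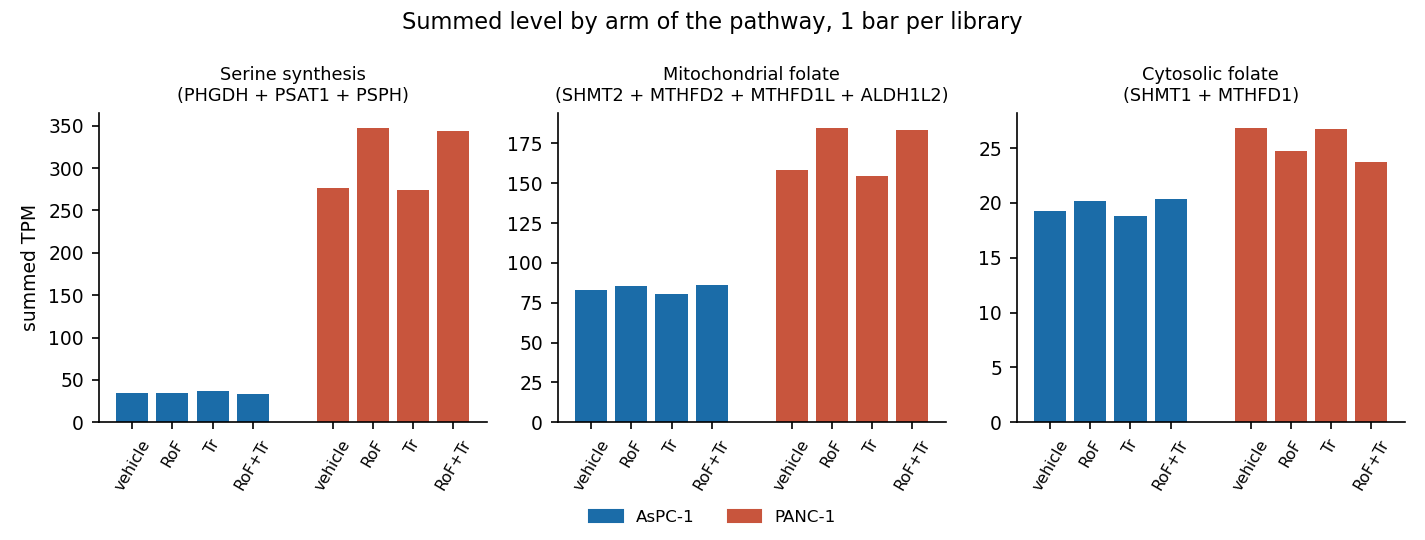
Summed TPM of the serine synthesis genes (PHGDH, PSAT1, PSPH), the mitochondrial folate genes (SHMT2, MTHFD2, MTHFD1L, ALDH1L2) and the cytosolic folate genes (SHMT1, MTHFD1), 1 bar per library from 0. In PANC-1 the first and the second sums are higher in the roseoflavin bars (348 and 344 against 277 and 275 TPM for serine synthesis) and the cytosolic sum is lower; the AsPC-1 bars are nearly level.

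The difference between the lines in the roseoflavin change was tested directly, and 0 of the 10 genes passed (0% of all genes, limma). In simulated data this test recovered 0% of log2 changes of 0.5 and 0% of 1, so a gene that does not pass may still differ. At an unadjusted p under 0.05, PCK2, PSAT1 and MTHFD2 had the higher change in PANC-1, 3 of the 8 genes that reached 1 TPM in both lines against 8.11% of all genes, and MTHFD1 had the lower, 1 of 8 against 3.54%. With ALDH1L2 and PHGDH there are 6 of 10, a count that became 2 without any 1 of the PANC-1 libraries. For PCK2 the change was 0.65 higher in PANC-1 (SE 0.119, 95% interval 0.31 to 0.98, limma adjusted p = 0.336). For PSAT1 it was 0.55 higher (SE 0.108, 0.25 to 0.85, limma adjusted p = 0.338), and for MTHFD2 0.45 higher (SE 0.0655, 0.27 to 0.63, limma adjusted p = 0.336). ALDH1L2 differed by 0.43 and PHGDH by 0.25, but neither transcript was above 0.052 TPM in AsPC-1, so these values restate the change in PANC-1. MTHFD1 differed by -0.23 (SE 0.0624, limma adjusted p = 0.378). MTHFD1L (-0.02) and SHMT2 (0.06) had nearly the same fitted change in both lines, with 95% intervals of -0.22 to 0.17 and -0.09 to 0.20. Those 2 genes were higher in all 4 pairs (4.91% of all genes). PCK2, MTHFD2, ALDH1L2 and PSPH were higher in both PANC-1 and lower in both AsPC-1 pairs (11.5% of all genes), and MTHFD1 the reverse (5.32%). Over both lines together 2 of the 10 had an unadjusted p under 0.05, both higher (2.03% of all genes): SHMT2 was at 0.11 (SE 0.0327, limma adjusted p = 0.659) and MTHFD1L at 0.11 (SE 0.0426, limma adjusted p = 0.677). In that fit 0% of all genes passed the adjusted threshold.

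With trametinib no change of these transcripts was detected in either line, in a design without replicates in which no gene passed. None of the 10 passed in either line, adjusted (0% of all genes in either line) or at an unadjusted p under 0.05 in limma (4.81% of all genes in PANC-1 and 14.1% in AsPC-1). Fitted changes ran from -0.11 (MTHFD1L) to 0.07 (PCK2) in PANC-1 and from -0.09 (PSAT1) to 0.10 (PSPH) in AsPC-1. Single pairs ranged wider in AsPC-1, where on top of roseoflavin PSAT1 was at -15.3% and PCK2 at 17.6%, against 3.00% and -4.72% with trametinib alone. MTHFD1L went from 43.4 to 40.1 TPM with trametinib alone and from 46.5 to 43.1 TPM on top of roseoflavin in PANC-1 (SE 0.0482, limma adjusted p = 1), and it was the one member whose trametinib libraries both lay below the others there (11.6% of all genes). PSPH in AsPC-1, at 19.1 and 18.4 TPM without and 20.3 and 20.2 TPM with trametinib, was the one with both above (24% of all genes; SE 0.0459, limma adjusted p = 0.428). MTHFD1 was lower in all 4 trametinib pairs (4.54% of all genes), with changes of -0.05 to -0.02. The trametinib change differed between lines by -0.12 to 0.08, and 0 of the 10 passed for that difference or over both lines (0% of all genes for either). The roseoflavin and trametinib comparisons within a line use the same 4 libraries.

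**Figure D4:**
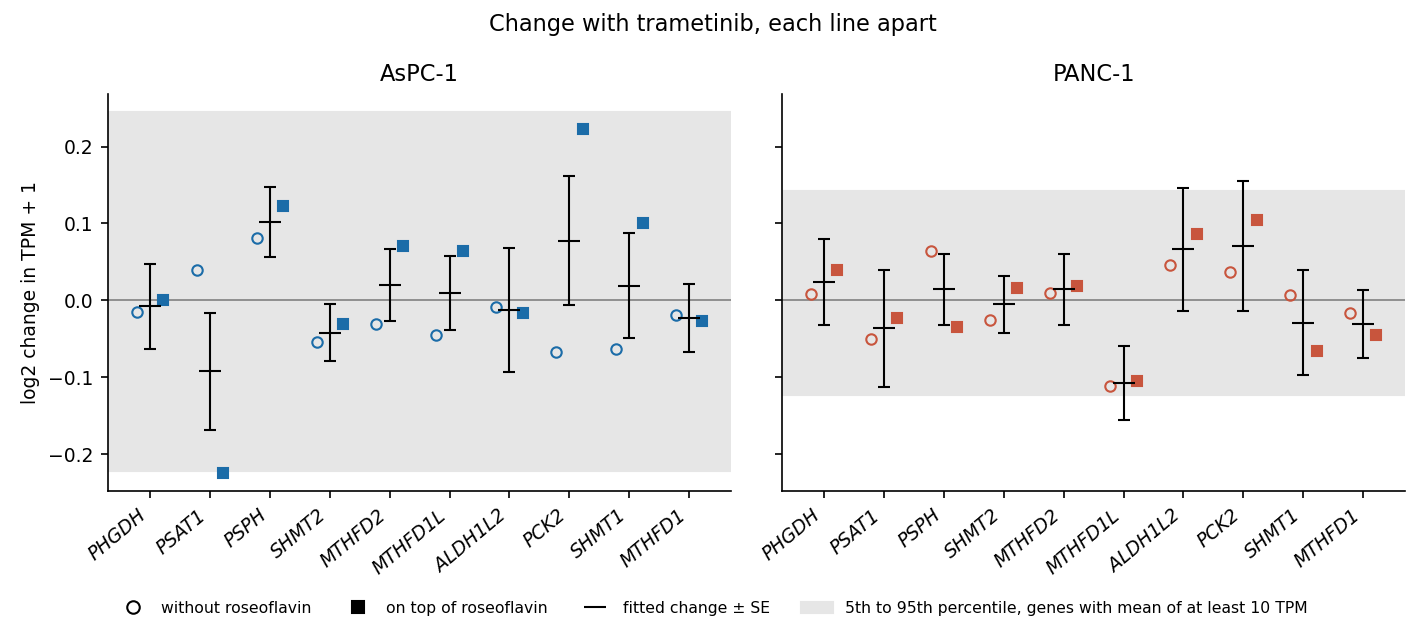
Change with trametinib in log2(TPM + 1), drawn as for roseoflavin. Fitted changes run from -0.11 to 0.07 in PANC-1 and from -0.09 to 0.10 in AsPC-1, inside the grey band of other genes.

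With both compounds the levels in PANC-1 were near those with roseoflavin alone: PSAT1 stood at 222 against 225 TPM, MTHFD2 at 74.5 against 73.5 TPM and PCK2 at 47.3 against 44.0 TPM. The departure of the combination from the sum of both changes ran from -0.12 (PSAT1) to 0.18 (PCK2) over the 10 genes in a model over both lines. None had an unadjusted p under 0.05 in limma, against 2.8% of all genes, and 0% of all genes passed the adjusted threshold.

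The wider folate, glycine and serine pathway had a median change near that of all genes. Of 37 further genes of one-carbon metabolism, 31 were tested, and FOLR1, ALDH1L1, FTCD, SDS, SARDH and DMGDH did not pass the filter on low values. With roseoflavin in PANC-1, 21 were counted as higher and 10 as lower (67.7% and 32.3%, against 49.4% and 50.2% of all genes) with a median of 0.03. PCK1 is among the 21 by rounding only, since it was listed at 0 TPM throughout PANC-1 and its fitted change is 0. Shares of all genes by direction of the fitted change, here and below, also hold genes listed at 0 TPM throughout a line. At an unadjusted p under 0.05, 4 were higher and 3 lower (12.9% and 9.68%, against 5.84% and 5.01% of all genes), and 0 passed the adjusted threshold. CTH, which makes cysteine from cystathionine, went from 7.52 to 11.1 TPM and from 6.54 to 8.96 TPM (fitted 0.45, SE 0.125, limma adjusted p = 0.406). The neutral amino acid carriers SLC1A4 and SLC1A5 were at 0.27 and 0.26. MTRR and DLD, which carry flavin, were at 0.03 and -0.01.

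In AsPC-1 the median of the 31 genes was -0.02, with 12 higher and 19 lower (38.7% and 61.3%, against 38.9% and 61.1% of all genes). SLC25A32, the mitochondrial folate and flavin carrier, went there from 23.3 to 25.7 and from 20.8 to 26.5 TPM with roseoflavin (fitted 0.24, SE 0.0656, limma adjusted p = 0.397), and in PANC-1 it was at 0.10. Between lines 28 of the 31 passed (90.3%, against 83.8% of all genes), 20 of them higher in PANC-1 (64.5%, against 62.3%) and 8 lower, shares near those of all genes. These counts include GLDC, CBS and SLC1A4, which reached the test only through PANC-1, and PCK1, which did so only through AsPC-1. Those genes had to differ, and the shares of all genes hold genes of that kind too. TYMS was at 1.48 and SFXN3, a mitochondrial serine carrier family member, at -1.23. The paralogs of the 10 enzymes were low: MTHFD2L stood at 1.20 to 2.00 TPM, ALDH1L1 at or under 0.216 TPM, and PCK1 at 0.744 to 1.76 TPM in AsPC-1 and listed at 0 in PANC-1.

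Other known ATF4 targets were measured beside the enzymes. Of 29 such genes, ATF4 itself included, 28 were higher and 1 lower with roseoflavin in PANC-1 (96.6% and 3.45%, against 49.4% and 50.2% of all genes). The median was 0.34 (0 for all genes). At an unadjusted p under 0.05 in limma 22 were called, all higher (75.9%, against 5.84% of all genes), while 0 passed the adjusted threshold. In AsPC-1, 17 were counted as higher and 12 as lower (58.6% and 41.4%, against 38.9% and 61.1% of all genes) with a median of 0.0044. STC2 and VLDLR, listed at 0 TPM throughout AsPC-1, are in these counts with a direction set by rounding only. The shares of all genes hold such genes too, so these shares are approximate. At that unadjusted p 1 was higher and 7 were lower (3.45% and 24.1%, against 2.75% and 8.57% of all genes). SLC7A11 (the cystine carrier, 0.84), DDIT3 (0.77), ATF3 (0.75), NUPR1 (0.62) and TRIB3 (0.61) had the largest fitted changes of the list in PANC-1. In AsPC-1 SLC7A11 was also higher, by 34.2% in either pair. DDIT3 (-25.5% and -26.5%) and NUPR1 (-21.5% and -65.3%) were lower there, and ATF3 and TRIB3 turned direction between the pairs. ASNS, asparagine synthetase, stood at 72.7 and 73.3 TPM without and 99.3 and 101 TPM with roseoflavin in PANC-1, and at 25.9 and 28.3 against 21.8 and 23.6 TPM in AsPC-1. Transcript of ATF4 stood at 236 and 231 against 270 and 272 TPM in PANC-1 (0.21, limma adjusted p = 0.383) and at 240 and 258 against 220 and 223 TPM in AsPC-1 (-0.17, limma adjusted p = 0.388). The median of the difference between lines was 0.35 over the 29 genes, 0.18 over the 10 enzymes and 0.04 over all genes tested. It was 0.08 over the 8 enzymes that reached 1 TPM in both lines. That limit was not set on the 29 genes, of which STC2 and VLDLR were listed at 0 TPM throughout AsPC-1. Of 24 ATF4 list genes with a promoter window, 8 held TGATGNAA (33.3%, against 2.68% of tested genes with a window). Whether the motif bears on the changes was not tested. Both lists were chosen with results of these libraries known, so their direction adds no independent evidence.

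**Figure D5:**
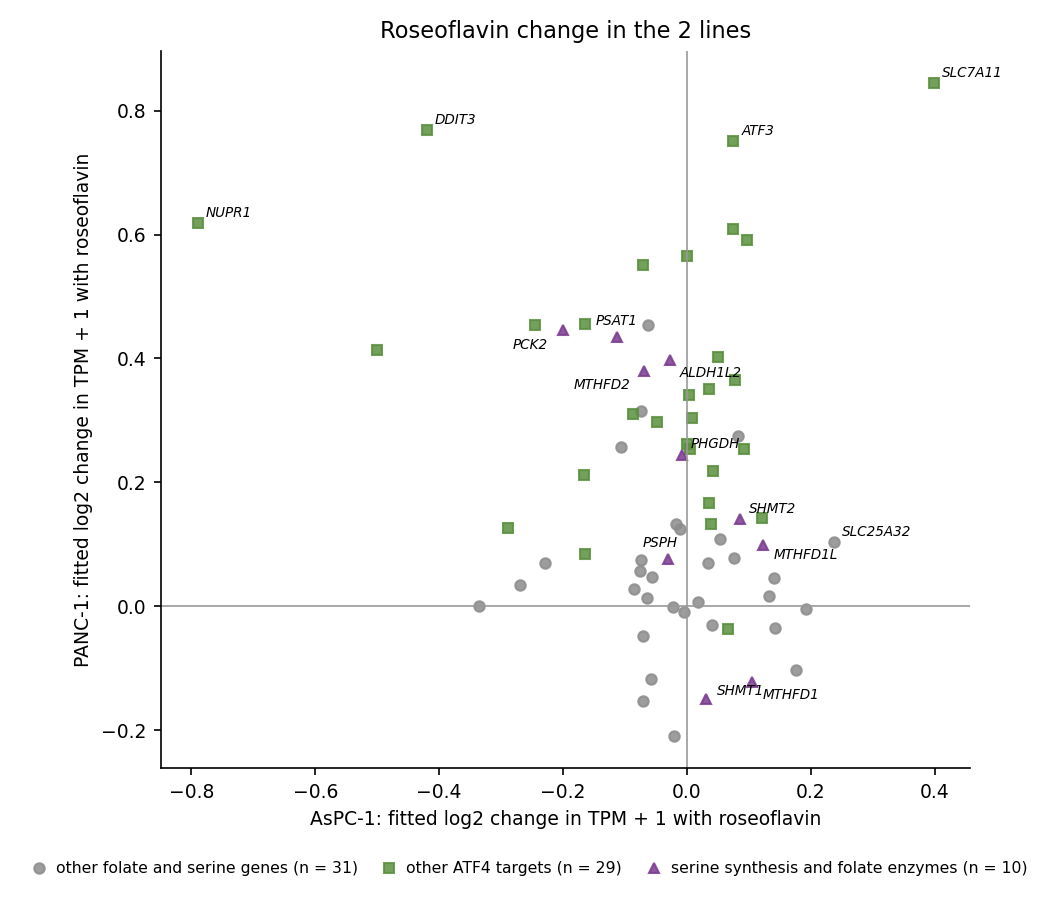
Fitted log2 change with roseoflavin in AsPC-1 (horizontal) and PANC-1 (vertical), 1 point per gene, for the 10 enzymes, the other one-carbon genes and the other ATF4 targets. PSAT1, PCK2, ALDH1L2 and MTHFD2 lie among the ATF4 targets, between 0.38 and 0.45 in PANC-1 and at or below 0 in AsPC-1, while most other one-carbon genes gather near 0 on both axes.

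The members differed among themselves in how closely they followed the mean of the 10. Over the 8 libraries, with each line's mean removed, Pearson's r to that mean was 0.991 for MTHFD2, 0.987 for PHGDH, 0.974 for ALDH1L2, 0.903 for PCK2 and 0.876 for PSAT1. It was 0.788 for SHMT2, 0.574 for PSPH and 0.499 for MTHFD1L, and negative for MTHFD1 (-0.769) and SHMT1 (-0.775). Each gene is part of that mean, PHGDH and ALDH1L2 vary in PANC-1 only, and the points share libraries, so these are descriptions. Among 8622 other genes averaging 10 TPM or more, the 5 most like the mean were FTL (ferritin light chain, 0.989), LDHB (0.985), BNIP3 (0.985), GPT2 (0.982) and S100P (0.982). FTL stood at 2986 and 2953 TPM without and 4544 and 4714 TPM with roseoflavin in PANC-1, and GPT2, a mitochondrial alanine transaminase, at 16.8 and 15.6 against 23.8 and 24.6 TPM. LDHB and BNIP3 are listed at 0 TPM throughout AsPC-1, and TPM alone cannot tell a true 0 from a failed estimate.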

How the data were processed

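RNA of 8 libraries was sequenced after column extraction and stranded, polyadenylated RNA library preparation, per the labels' protocols. The authors deposited 1 table of TPM per gene; the submitters' processing notes name hg38, STAR 2.7.3a and HTSeq 2.0.2, and the annotation, gene lengths and handling of shared reads are not given in the sources used here. TPM keeps no depth. Groups came from the labels, 1 library each, so the spread is the departure from additive models and may be technical.

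The table held 62649 genes after 985926 blank rows were dropped. Genes that reached 1 TPM in 2 libraries (19122) were fitted as log2(TPM + 1) with limma 3.58.1 in R 4.3.3 (eBayes with trend), and p-values were Benjamini-Hochberg adjusted over all of them at 0.05. Changes within a line and their differences used line, each compound and their products (2 residual degrees of freedom). The line comparison and the values over both lines used additive terms (4). Matched changes compare 1 library with 1. Genes named from the lists are those among the 5 lowest adjusted p past the threshold, the 5 largest changes with roseoflavin in PANC-1, the flavin enzymes and mitochondrial folate carrier, the paralogs, and ATF4, DDIT3 and ASNS. Some genes that this rule takes in are not reported here. Likeness is the 5 highest r.

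In simulated data of 19122 genes, 2% of log2 changes of 0.5 and 38% of 1 were recovered for roseoflavin in PANC-1, 0% and 0% for the difference between lines, and 67% and 83% over both lines. Alternatives were pseudocount, filters, scalings, models and leaving out each library. The members and lists were chosen with earlier results of these data known.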

Additional observations from a re-analysis of the deposited data

Results flagged for a closer look

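In 5 of the 10 enzymes both roseoflavin pairs of PANC-1 moved in the direction opposite to both pairs of AsPC-1. The change in PANC-1 minus that in AsPC-1 was 0.65 for PCK2, 0.45 for MTHFD2, 0.43 for ALDH1L2, 0.11 for PSPH and -0.23 for MTHFD1 on the log2(TPM + 1) scale. For PCK2, MTHFD2, ALDH1L2 and PSPH that is higher in both PANC-1 and lower in both AsPC-1 pairs, a pattern of 11.5% of all genes tested, and for MTHFD1 it is the reverse, a pattern of 5.32%. The difference was tested with limma, and none of the 5 passed after adjustment over all genes (adjusted p = 0.336 for PCK2 and MTHFD2, 0.371 for ALDH1L2, 0.378 for MTHFD1 and 0.572 for PSPH). That test recovered 0% of simulated log2 changes of 0.5 and 0% of 1, so it cannot decide whether they differ. The AsPC-1 side of ALDH1L2 rests on 0.023 to 0.052 TPM, and the 95% interval of the PSPH difference, -0.08 to 0.29, includes 0. On top of trametinib the PSPH pairs were only 0.03 in PANC-1 and -0.01 in AsPC-1. All these directions are of TPM as deposited, and directions of pairs rescaled over nuclear genes were not counted.

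For trametinib the same pattern was met by ALDH1L2 alone among the 10, with a difference of 0.079 (limma adjusted p = 0.848), again with AsPC-1 levels near 0.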

How the results depend on the processing

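No analysis paired by replicate was possible because each group has 1 library and the labels give no replicate numbers. The matched pairs above are libraries of a line that differ by 1 compound. The counts of members past an adjusted or size threshold moved by over 1.5 times in 1 of their alternatives, and most of these counts are 0 in fits where 0 of all genes passed, so their constancy says nothing about stability. The 1 was the size threshold: 4 genes were at least 25% higher with roseoflavin in both PANC-1 pairs, and 0 were at 50%. Directions of single genes turned in few cases. Under quantile normalization, PSPH and DLD with roseoflavin in AsPC-1 became 0.0058 and 0.015, and MTHFD1 between lines became -0.33. Rescaled over nuclear genes, MTHFD1 between lines was -0.17, the SHMT2 difference between lines in the roseoflavin change was -0.0062, and MTRR in PANC-1 and DLD in AsPC-1 were -0.0069 and 0.020. The cause was not tested. With 1 library left out, the lone library of an arm is assumed to vary like the others. Values that turned then ranged from -0.25 to 0.019 for PSAT1 and from -0.051 to 0.11 for SHMT1 with roseoflavin in AsPC-1, from -0.078 to 0.031 for the MTHFD1L difference between lines, from -0.011 to 0.067 for MTRR and from -0.091 to 0.071 for DLD in PANC-1, and from -0.089 to 0.079 for DLD in AsPC-1. In PANC-1 the roseoflavin changes of PSAT1, MTHFD2, PCK2, ALDH1L2 and PHGDH kept their direction under every alternative run, with adjusted p of 0.194 to 0.696, 0.135 to 0.619, 0.219 to 0.702, 0.352 to 0.527 and 0.265 to 0.659 by limma. TPM gives no depth, so counting error could not be set beside any value.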
